A study of Mus musculus with 8 samples.

Results

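The 9 genes described here encode the core of PI3K, AKT and mTOR signalling. They are Pik3ca, Pdpk1, Akt1, Akt2, Tsc1, Tsc2, Mtor, Rptor and Rictor, chosen by name from 21883 protein-coding genes of the RefSeq annotation of GRCm38.p6. The measure was trimethylation of lysine 36 of histone H3 (H3K36me3), mapped by ChIP-seq (chromatin immunoprecipitation followed by sequencing) in stromal cells of mouse bone marrow, the adherent cells of marrow cultures. All groups came from Setd2 fl/fl mice of the C57BL/6J strain, in which the gene for the H3K36 methyltransferase Setd2 can be deleted by Cre, and were used at passage 2. WT cells carried a lentivirus for GFP and KO cells one for Cre, both after 4 days of puromycin at 2 µg/ml. Each genotype had 2 H3K36me3 libraries, compared with 1 Input library (chromatin without antibody) and 1 IgG library (control antibody) of the same genotype. The labels give neither the share of cells with the deletion nor the age of the mice. Nor do they name separate cultures behind the replicate libraries, so each p-value reflects the spread between these particular samples, and that spread may be technical. The test used below also draws the spread of each gene toward that of the other genes tested. No p-value therefore rests on the libraries of its own gene alone.

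PI3K turns the membrane lipid PIP2 into PIP3 downstream of growth factor receptors, and Pik3ca encodes one of its catalytic subunits. PIP3 brings AKT kinases to the membrane, where PDK1, the product of Pdpk1, phosphorylates them. AKT inhibits the Tsc1-Tsc2 complex, which holds the small GTPase Rheb inactive, and active Rheb switches on mTOR kinase in the complex mTORC1, defined by Raptor (Rptor). A separate complex, mTORC2, defined by Rictor, phosphorylates AKT in turn. H3K36me3 is laid down by Setd2 travelling with RNA polymerase II, so it lies over the bodies of transcribed genes and is usually low at their starts.

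The measurements were the authors' lists of H3K36me3 peaks, and coverage is the percent of a gene's annotated span under peaks. Lists called against Input are meant unless IgG is named. They held 242745 and 246258 peaks in WT against 122589 and 159459 in KO. Their read depth is unknown. Over Setd2 itself, coverage was 66.4% and 60.5% in WT against 0.690% and 1.70% in KO, which shows the mark over the gene and is no check of the deletion. Of the stromal markers, 11 of 15 had enough coverage to be tested, and mean coverage of that list was 40.4% and 37.5% in WT against 2.67% and 3.20% in KO, with Thy1 and S100a4 at 0 in all 4 libraries. Against IgG, 5 of the 15 had no WT peak, among them Col1a1, Vim and Fn1, whose WT means against Input were 68.8%, 87.2% and 76.2%, so a gene without peaks against IgG can be well covered against Input. Of 14 haematopoietic markers 8 were tested, and mean coverage of that list was 20.4% and 26.5% in WT against 1.99% and 5.62% in KO, with Cd14 and Cd79a at 0 in all 4 libraries. Myeloid markers of the same list varied in WT. The most covered were Lyz2 at 74.9% and 87.6%, Cd68 at 37.0% and 71.3% and Csf1r at 45.1% and 43.5%. Lower were Itgam at 23.9% and 21.7%, Spi1 at 19.3% and 14.8% and Adgre1 at 18.6% and 17.3%. Against IgG the WT mean was 0% for Lyz2, 54.2% for Cd68 and 36.4% for Csf1r. None of 8 endothelial markers was tested, with list means of 4.07% and 2.17% in WT against 4.57% and 5.47% in KO, and Cldn5 at 0 throughout. The part of other cell types in the results below was not tested. Where a gene is covered less, fewer cells with the mark and less mark per cell cannot be told apart.

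The sequences just upstream of the transcription starts show where the mark was not called. RefSeq gives 14 start windows for the 9 genes, here taken as the 250 bases before each annotated start on GRCm38.p6. In 13 of the 14 no base lay under a WT peak, and in all 14 no base lay under a KO peak. Of all 32851 such windows, 4.73% and 4.56% had a base under a peak in the WT libraries. In the KO libraries it was 2.63% and 3.08%, so both counts are near the background. The exception among the 14 was the outer start window of Pdpk1, whose start lies 4.70 kb inside the annotated span. The 4 windows shown are this exception, the inner Pdpk1 start as its contrast, Mtor as a gene covered from near its start, and Rictor as the window richest in CpG. Sequences run 5′ to 3′ on the gene's strand in lower case, and capitals mark each CpG dinucleotide.
Pdpk1 outer start, chr17:24150923-24151172, minus strand: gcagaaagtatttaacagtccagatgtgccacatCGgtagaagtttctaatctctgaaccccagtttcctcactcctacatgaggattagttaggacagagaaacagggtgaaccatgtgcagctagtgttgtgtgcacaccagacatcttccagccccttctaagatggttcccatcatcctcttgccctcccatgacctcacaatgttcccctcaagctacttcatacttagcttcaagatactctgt
Pdpk1 inner start, chr17:24141595-24141844, minus strand: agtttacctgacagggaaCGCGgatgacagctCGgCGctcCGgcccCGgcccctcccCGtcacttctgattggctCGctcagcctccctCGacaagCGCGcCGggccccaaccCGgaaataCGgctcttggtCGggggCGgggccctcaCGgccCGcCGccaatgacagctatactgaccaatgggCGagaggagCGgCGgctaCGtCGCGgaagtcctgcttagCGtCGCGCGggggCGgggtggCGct
Mtor, chr4:148448332-148448581, plus strand: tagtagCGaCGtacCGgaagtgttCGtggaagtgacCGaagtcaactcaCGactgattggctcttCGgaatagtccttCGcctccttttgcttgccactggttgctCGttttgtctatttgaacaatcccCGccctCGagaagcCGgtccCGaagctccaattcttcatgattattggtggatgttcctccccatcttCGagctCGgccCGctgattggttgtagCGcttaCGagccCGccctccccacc
Rictor, chr15:6708131-6708380, plus strand: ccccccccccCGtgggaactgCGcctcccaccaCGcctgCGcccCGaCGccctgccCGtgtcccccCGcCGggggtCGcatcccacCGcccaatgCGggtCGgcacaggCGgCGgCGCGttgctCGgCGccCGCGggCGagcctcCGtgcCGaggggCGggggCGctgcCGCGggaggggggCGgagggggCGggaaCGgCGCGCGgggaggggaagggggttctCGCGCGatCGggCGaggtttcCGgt

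The outer Pdpk1 window held 1 CpG, and 250 and 243 of its bases lay under WT peaks. Against IgG the values were 0 and 243, so 1 of the WT libraries did not show it there. The inner window, which starts transcription 14.0 kb into the annotated span, held 31 CpG and no base under a peak in any library. The Mtor window held 19 CpG and the Rictor window 40. The motif CG, which reads the same on both strands, was counted in all 32851 start windows of the same length, where the median was 6. Of all windows, 1.31% held as many CpG as Rictor and 92.1% held at least the 1 of the outer Pdpk1 window. Among windows with at least 10 CpG, 0.685% had bases under peaks of both WT libraries, against 3.86% of windows with fewer. From the start to the first covered base it was 2222 and 2617 bp in Mtor. Measured from the 5′ end of the annotated span it was 11196 and 4201 bp in Rictor.

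The main comparison asked how much of each gene lay under H3K36me3 peaks in cells given Cre (KO) and in cells given GFP (WT). All 9 genes lost nearly all of their coverage. WT coverage ran from 34.3% to 88.8% over the genes and libraries, and KO coverage from 0% to 5.47%, so that the groups did not overlap in any gene. All 9 passed the filter of at least 10% mean coverage over the 4 libraries, each through its WT libraries. With limma on coverage and Benjamini-Hochberg adjustment, 9 of 9 were lower in KO. Of all 10806 genes tested, 92.6% were called lower and 0.555% higher, so the count of 9 is near the background and is no result about these genes. Both KO libraries lay below both WT libraries in 94.8% of the genes tested. The median difference of KO minus WT was -59.3 percentage points over the 9 genes and -47.7 over all genes tested, and no comparison of the medians was made.

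**Figure D1:**
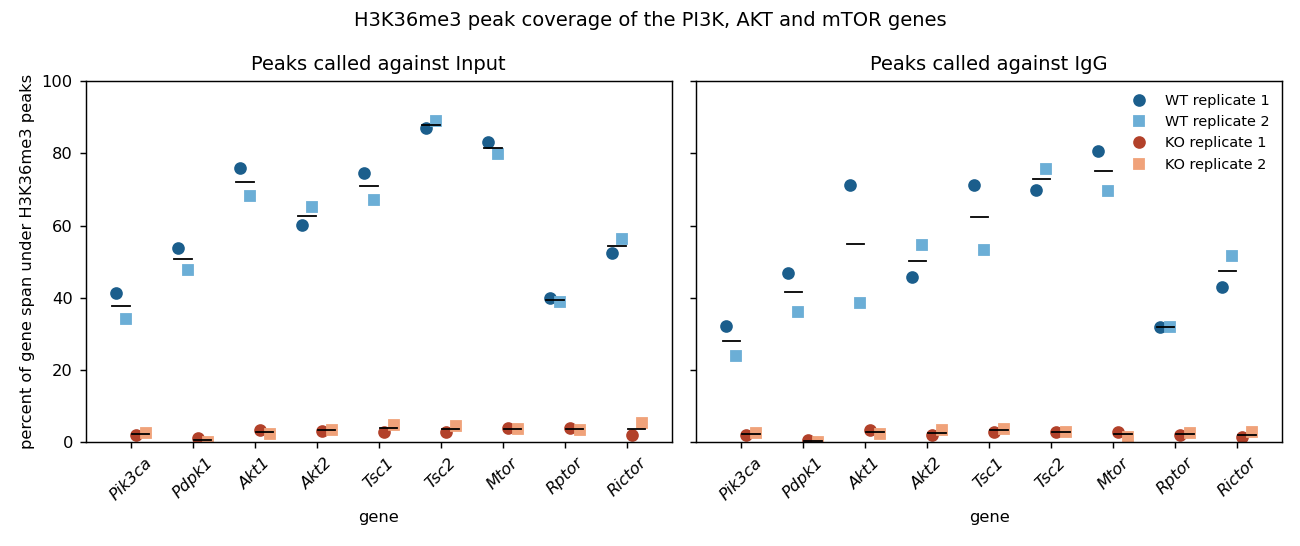
Percent of each gene's span under H3K36me3 peaks (vertical axis) for the 9 genes (horizontal axis, in pathway order), with lists called against Input on the left and against IgG on the right. Points are single libraries and black bars are means of 2 libraries; against Input the WT points lie between 34.3% and 88.8% and the KO points between 0% and 5.47%.

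Pik3ca, the catalytic subunit p110alpha, spans 69.0 kb of chromosome 3 from 32397065 to 32466112 on the plus strand. Its coverage was 41.4% and 34.3% in the WT libraries against 2.00% and 2.55% in the KO libraries. Both KO values lay far below both WT values. The difference was -35.5 points (SE 3.23, limma adjusted p = 0.0011). With each gene cut into 3 equal parts from its 5′ end, WT coverage of Pik3ca was 11.8% and 9.25% in the 5′ part, 26.4% and 28.4% in the middle part and 85.9% and 65.2% in the 3′ part. Its neighbour Kcnmb3 overlaps the 3′ end by 967 bp and was itself covered at only 5.15% and 5.51% in WT.

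Pdpk1, the kinase PDK1 that activates AKT, spans 81.9 kb of chromosome 17 from 24073680 to 24155619 on the minus strand. Coverage was 53.7% and 47.6% in WT against 1.25% and 0% in KO. It was the gene with no peak at all in the second KO library. The difference was -50.0 points (SE 3.01, limma adjusted p = 0.000393). With the gene cut into 10 equal parts, Pdpk1 was covered at its 5′ end (55.4% and 52.4% of part 1), was sparse in parts 2 to 5 (6.91% to 28.5%) and was dense again in parts 7 to 10 (62.9% to 97.1%). Against IgG part 10 was covered at only 41.5% and 9.59%, and part 1 at 38.8% and 45.3%. The 5 kb upstream were covered at 86.0% and 100%, and there the neighbour Amdhd2 begins 213 bp from Pdpk1. A WT peak of 6661 bp in the second WT library, its widest over Pdpk1, lay almost wholly in that flank and reached only 3 bp into the span. Amdhd2 was covered at 71.7% and 81.6% in WT and at 0% in both KO libraries.

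The AKT kinases were covered over most of their length in WT. Akt1 spans 21.1 kb of chromosome 12 (112653821 to 112674884, minus strand), with coverage of 75.9% and 68.1% in WT against 3.26% and 2.36% in KO. The difference was -69.2 points (SE 3.48, limma adjusted p = 0.000281). In each KO library a single peak was left, of 687 and 497 bp, at different places. Akt2 spans 49.3 kb of chromosome 7 (27591552 to 27640826, plus strand), with coverage of 60.2% and 65.0% in WT against 3.16% and 3.43% in KO. The difference was -59.3 points (SE 2.61, limma adjusted p = 0.000235). The genes of this pair differed in where the marked part ended. Peaks ran past the 3′ end of Akt1, with 99.9% and 90.5% of the next 5 kb covered in WT, whereas none of the 5 kb after Akt2 was covered. In Akt2 the 5′ part was covered at 9.38% and 25.3% and the 3′ part at 88.6% and 88.0%.

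Tsc1 and Tsc2 encode hamartin and tuberin, the partners of the complex that restrains Rheb. Tsc1 spans 50.2 kb of chromosome 2 (28640993 to 28691172, plus strand), with coverage of 74.6% and 67.1% in WT against 2.98% and 4.69% in KO. The difference was -67.0 points (SE 3.41, limma adjusted p = 0.000286). Of 10 equal parts, part 1 held no peak in any library, and parts 4 and 5 were covered at 93.1% to 98.9% in WT. Tsc2 spans 36.9 kb of chromosome 17 (24595816 to 24632676, minus strand), with coverage of 86.9% and 88.8% in WT, the highest of the 9, and 2.82% and 4.41% in KO. The difference was -84.2 points (SE 2.09, limma adjusted p = 0.000211). In contrast to Tsc1, peaks over Tsc2 began 1.40 and 1.35 kb from its 5′ end, and the 5′ part was already covered at 83.7% and 79.6%. Against IgG its peaks began at 2.72 and 2.20 kb, and the 5′ part was covered at 42.8% and 74.3%. The neighbour Nthl1 lies 3 bp upstream of Tsc2, and Pkd1 overlaps its 3′ end by 699 bp. The widest peak over the 9 genes, 9694 bp in the first WT library, ran from 29.9 to 39.6 kb of Tsc2, past its 3′ end and into Pkd1.

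Mtor, the kinase of both complexes, spans 109 kb of chromosome 4 (148448582 to 148557685, plus strand). Coverage was 83.1% and 79.9% in WT against 3.89% and 3.58% in KO, with no overlap. The difference was -77.7 points (SE 2.18, limma adjusted p = 0.000211). Mtor was covered along its length in WT, at 89.7% and 85.4% in the 5′ part, 76.9% and 67.8% in the middle part and 82.6% and 86.4% in the 3′ part. Of 10 equal parts, part 6 was the lowest, at 49.5% and 52.2%. Angptl7, a short gene inside Mtor, was covered at 80.7% and 59.9% in WT and at 0% in KO. The peak with the highest authors' score over the 9 genes, 1360.22, was an Mtor peak of 9503 bp in the first WT library.

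Rptor and Rictor define mTORC1 and mTORC2. Rptor, the longest of the 9, spans 297 kb of chromosome 11 (119602905 to 119899591, plus strand), with coverage of 39.8% and 38.8% in WT against 3.84% and 3.27% in KO. The difference was -35.8 points (SE 1.89, limma adjusted p = 0.000292). Coverage in WT was 13.2% and 12.3% in the 5′ part, 38.3% and 38.9% in the middle part and 68.1% and 65.2% in the 3′ part. Rictor spans 92.1 kb of chromosome 15 (6708349 to 6800401, plus strand), with coverage of 52.3% and 56.4% in WT against 1.90% and 5.47% in KO. The difference was -50.6 points (SE 2.80, limma adjusted p = 0.000331). Rictor had the largest gap between the KO libraries, with 3 and 9 peaks. It too was covered mostly beyond the 5′ part (13.1% and 14.8%), at 80.4% and 86.5% in the 3′ part.

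The calls for Rptor and Rictor depended on the scale. Each library was divided by its own mean coverage over genes and multiplied by the mean of the library means. Those library means were 26.3% and 25.5% in WT against 2.92% and 3.72% in KO. Scaling therefore lowered WT values and raised KO values, so scaled points are not percent of a gene's span. The median difference of all tested genes moved from -47.7 to -16.7 points, and 45.2% of genes were called lower. On that scale 7 of the 9 genes were called lower. Rptor had -6.15 points (limma adjusted p = 0.194) and Rictor -15.2 points (limma adjusted p = 0.105), and all 9 differences were below 0. On this scale the largest was that of Tsc2, -33.9 points (limma adjusted p = 0.0132).

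In order of WT coverage the genes were Tsc2 (87.9% ± 1.38, SD, n = 2), Mtor (81.5% ± 2.27), Akt1 (72.0% ± 5.53), Tsc1 (70.8% ± 5.26), Akt2 (62.6% ± 3.41), Rictor (54.3% ± 2.91), Pdpk1 (50.7% ± 4.32), Rptor (39.3% ± 0.742) and Pik3ca (37.8% ± 5.02). Neighbours in this order whose libraries overlapped were Akt1 and Tsc1, Rictor and Pdpk1, and Rptor and Pik3ca. The libraries of the remaining neighbours did not overlap. Over all protein-coding genes median WT coverage was 14.1%, and 65.8% of them were covered less than Pik3ca and 99.5% less than Tsc2. In KO the means lay between 0.626% for Pdpk1 and 3.83% for Tsc1, against a median of 2.51% over all genes tested. The KO mean was 1.24% of the WT mean in Pdpk1 and 9.04% in Rptor, the lowest and the highest share.

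Peaks over the 9 genes were fewer and narrower in KO. Over the combined span of 806 kb there were 314 and 334 peaks in WT against 41 and 46 in KO, covering 55.2% and 53.3% against 3.05% and 3.29%. Per 100 kb, WT libraries had 24.6 to 54.8 peaks over single genes and KO libraries 0 to 9.78. For scale, the median over 5538 tested genes of at least 20 kb was 42.0 and 42.7 in WT against 4.23 and 5.55 in KO. Median width was 875 and 868 bp in WT against 581 and 570 bp in KO. Peaks wider than 2 kb made up 60 and 55 of the WT peaks (19.1% and 16.5%) and none of the KO peaks, whose widths ran from 306 to 1039 bp. Over the whole lists the median width was 688 and 668 bp in WT against 566 and 568 bp in KO. There, peaks wider than 2 kb made up 8.61% and 7.57% in WT against 0.0742% and 0.0690% in KO. Narrow KO peaks are therefore not particular to these genes. The pooled values of the 9 genes were not tested.

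**Figure D2:**
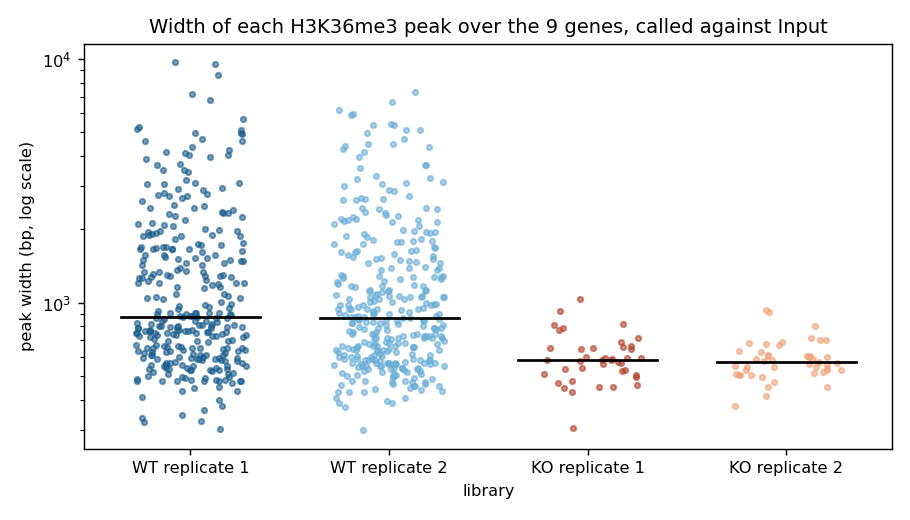
Width in bp (vertical axis, log scale) of each peak over the 9 genes called against Input, for the 4 libraries (horizontal axis). Each point is a peak and the black bars are medians, 875 and 868 bp in WT against 581 and 570 bp in KO; no KO peak is wider than 1039 bp.

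The places of the peaks were compared between libraries. Of the bases covered over the 9 genes in at least 1 of a pair of libraries, 64.4% were covered in both for WT and 3.58% for KO. Such shares rise with the amount covered, which differed between the genotypes, so these values do not show that peaks were placed less alike in KO. By gene the WT share ran from 47.9% in Rptor to 85.4% in Tsc2. Counting peaks, 84.7% and 85.3% of WT peaks met a peak of the other WT library, against 4 of 41 and 5 of 46 for KO. Peaks of both KO libraries met in 4 genes: centred 11.5 and 11.3 kb from the 5′ end of Pik3ca, 31.1 and 31.0 kb from that of Tsc1, between 16.5 and 17.7 kb from that of Tsc2, and 70.4 and 70.2 kb from that of Rictor. The Pik3ca pair lay on no WT peak, and the pairs in Tsc1, Tsc2 and Rictor lay on peaks of both WT libraries. The Tsc2 peak in the first KO library had the highest authors' score of the KO peaks, 117.3. Of all 87 KO peaks, 78 lay on a WT peak, 9 on none (6 of them in Rptor), and 59 were also called against IgG. For scale, 65.9% of the combined span lay under a peak of at least 1 WT library. That is a share of bases, whereas a KO peak counted if any of its bases met a WT peak. A whole peak meets a WT peak more often than a single base does, so these values are not directly comparable. No test was made of the overlap. Of the 343 kb covered in both WT libraries, 8.51% lay under any KO peak.

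**Figure D3:**
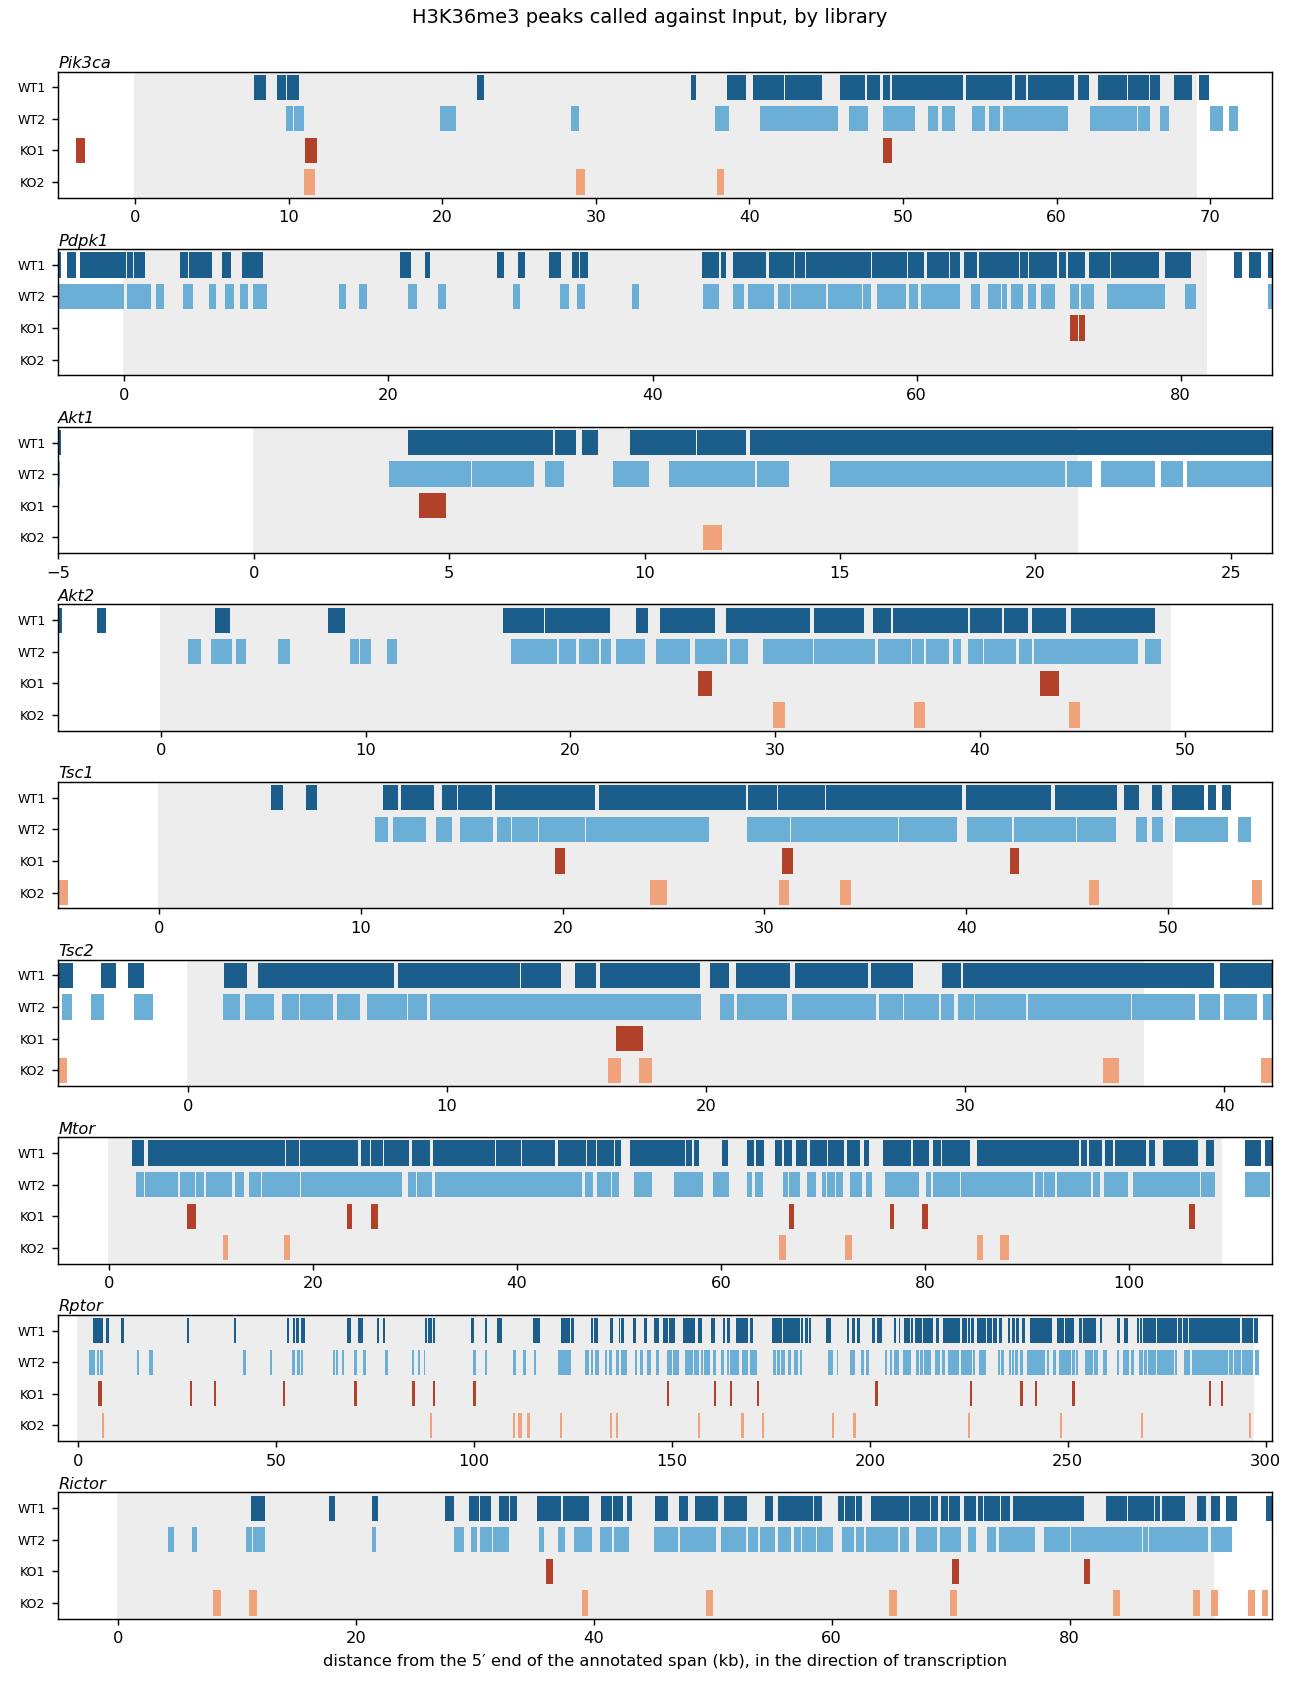
Position of each peak called against Input, in kb from the 5′ end of the annotated span in the direction of transcription (horizontal axis), for the 4 libraries (rows) of each gene. Grey marks the span and bars are peaks, to scale within a gene. WT peaks lie over most of Tsc2 and Mtor and are densest in the distal part of Pik3ca, Rptor and Rictor. KO rows hold at most 19 short peaks per gene.

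Along the genes, coverage in WT was lower in the 5′ part than in the 3′ part in both libraries for 8 of the 9 genes. The same held for 84.5% of 4966 genes of at least 20 kb with WT coverage of at least 10%, so the count is near the background. Against IgG it was 7 of 9, at 77.3% of 4762 such genes, because Akt1 had 50.3% in the 5′ part and 0% in the 3′ part in the second WT library. Against Input the exception was Mtor, whose first WT library had 89.7% in the 5′ part and 82.6% in the 3′ part. Against IgG both WT libraries of Mtor had less in the 3′ part (82.5% and 60.0%) than in the 5′ part (86.3% and 82.9%). Over those 4966 genes the mean was 30.5% and 29.4% in the 5′ part and 60.7% and 58.8% in the 3′ part. Pik3ca, Rptor, Rictor and Akt2 had at most 25.3% in the 5′ part, and Mtor and Tsc2 at least 79.6%, in the lists against Input. KO coverage of any of the 3 parts was at most 9.78%, in Akt1, where it came from a single peak.

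**Figure D4:**
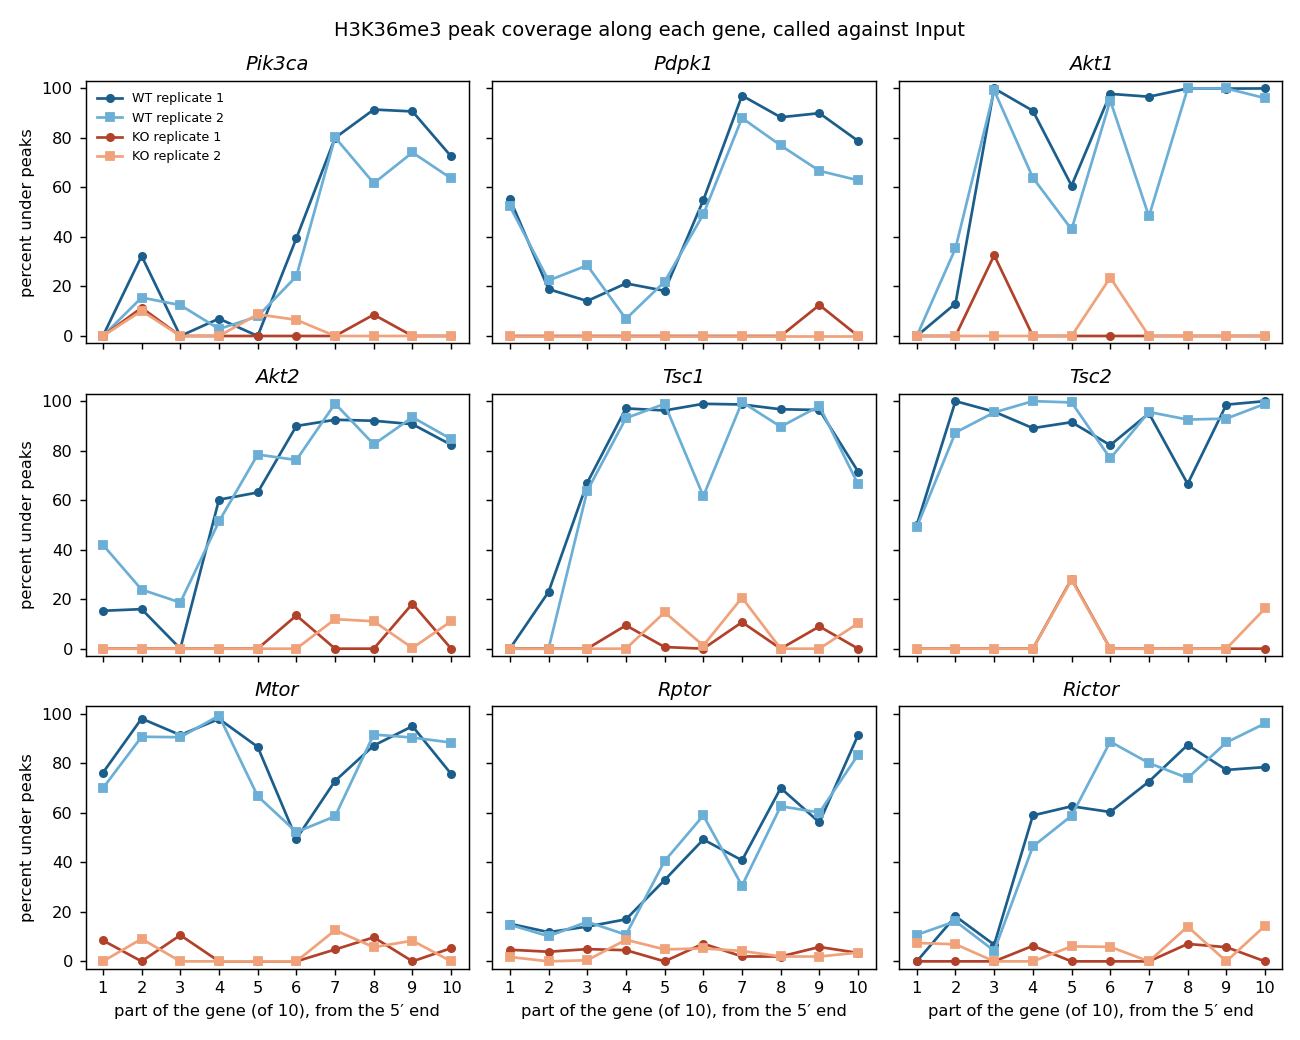
Percent of each of 10 equal parts of a gene under peaks called against Input (vertical axis), numbered from the 5′ to the 3′ end (horizontal axis), for the 4 libraries of each gene. WT lines rise along Pik3ca, Akt2, Rptor and Rictor and stay high along most of Tsc2 and Mtor, while Pdpk1 is covered at both ends in these lists; KO lines stay low throughout.

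The lists called against IgG gave the same direction in all 9 genes, and 9 of 9 were lower in KO with limma, where 91.4% of 9632 genes tested were. WT coverage against IgG was lower than against Input in each gene and library. KO coverage ran from 0% to 3.66%. The pair of WT libraries stood farthest apart in Akt1, at 71.3% and 38.5%, with 3.26% and 2.36% in KO and a difference of -52.1 points (SE 12.9, limma adjusted p = 0.0255). In the second WT library no peak against IgG lay over the last 7.37 kb of Akt1 or the next 5 kb, where the list against Input covered most bases. Against IgG, the first covered base of Pik3ca in the first WT library moved from 7.75 to 22.3 kb from the 5′ end.

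The wider pathway was then described with a list of 83 further genes. Of these, 67 passed the coverage filter, each through its WT libraries, since no KO mean among them exceeded 8.66%. All 67 were lower in KO with limma, 0 higher, at a background of 92.6% lower, so the direction was nearly fixed by the filter. Without the filter 74 of 82 were lower, at a background of 58.5% of 18284 genes. Median WT coverage was 44.4% over the list and 14.1% over all protein-coding genes. A gene with little WT coverage has little to lose, so these shares do not show that the list was affected more. The median difference was -46.6 points, against -47.7 over all genes tested. After scaling to each library's mean coverage 34 of the 67 were called lower, at a background of 45.2%, and 0 higher, and 10 had a difference above 0. A scaled difference above 0 is no gain of coverage, since all 67 were lower in KO before scaling. The 16 genes not tested included Grb10, Inpp4b, Foxo1, Sgk1, Deptor, Prr5, Rhebl1, Rraga and Sesn1. Deptor, an inhibitor that binds mTOR, was covered at 3.62% and 3.44% in WT against 5.67% and 5.30% in KO. All these values are low. The 8 endothelial markers had list means of like size, 4.07% and 2.17% in WT against 4.57% and 5.47% in KO.

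Upstream in the pathway, all 5 tested receptors and adaptors were lower, from Grb2 (49.7% and 44.1% in WT, 2.01% and 1.78% in KO) to Irs2, an insulin receptor substrate (22.6% and 22.0%, against 0% and 2.20%). The 11 other PI3K subunits were all tested and lower. Of all genes tested 92.6% were lower, so the counts by role here and in the next paragraph are near the background. Pik3r4, a regulatory subunit of the class III enzyme, had the largest fall (81.2% and 76.0% to 4.99% and 2.38%) and Pik3c2b, a class II kinase, the smallest (23.0% and 24.6% to 3.78% and 2.35%), which after scaling lay 0.632 points above 0 (limma adjusted p = 0.912). Of 10 phosphatases 8 were tested and lower. Inppl1, the phosphatase SHIP2, went from 73.9% and 73.0% to 0% in both KO libraries. Inpp5d, the phosphatase SHIP1, fell from 32.0% and 28.7% to 5.22% and 8.06% but lay 11.8 points above 0 after scaling (limma adjusted p = 0.0611). Among AKT relatives and substrates 4 of 9 were tested and lower. Gsk3a fell from 77.9% and 81.3% to 6.43% and 5.14%, and Foxo3, a transcription factor that AKT keeps out of the nucleus, from 53.4% and 46.4% to 1.14% and 1.23%.

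Around mTOR, 5 of 8 partners were tested and lower, and Mlst8, a subunit of both complexes, had 69.1% and 64.7% in WT against 0% in both KO libraries. Tbc1d7, the third subunit of the TSC complex, fell from 65.1% and 61.1% to 14.3% and 2.99% and lay 6.18 points above 0 after scaling (limma adjusted p = 0.852). Rheb fell from 42.4% and 43.8% to 3.36% and 0%. Of 17 genes of lysosomal amino acid sensing 13 were tested and lower, from Flcn (84.9% and 89.8% to 5.86% and 0%) to Castor1 (29.4% and 14.1% to 0% in both). All 8 genes of the GATOR complexes, which pass amino acid levels on to mTORC1, were lower, with Sec13 at 79.2% and 85.5% in WT against 0% in KO. The 11 mTORC1 substrates and effectors were all lower as well, beside 92.6% of all genes tested. Rps6, a ribosomal protein phosphorylated by S6 kinase, went from 80.6% and 86.9% to 0% in both, and Tfeb, a regulator of lysosomal genes, from 20.6% and 13.4% to 4.48% and 3.08%, a fall that scaling turned to 7.72 points above 0 (limma adjusted p = 0.254).

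**Figure D5:**
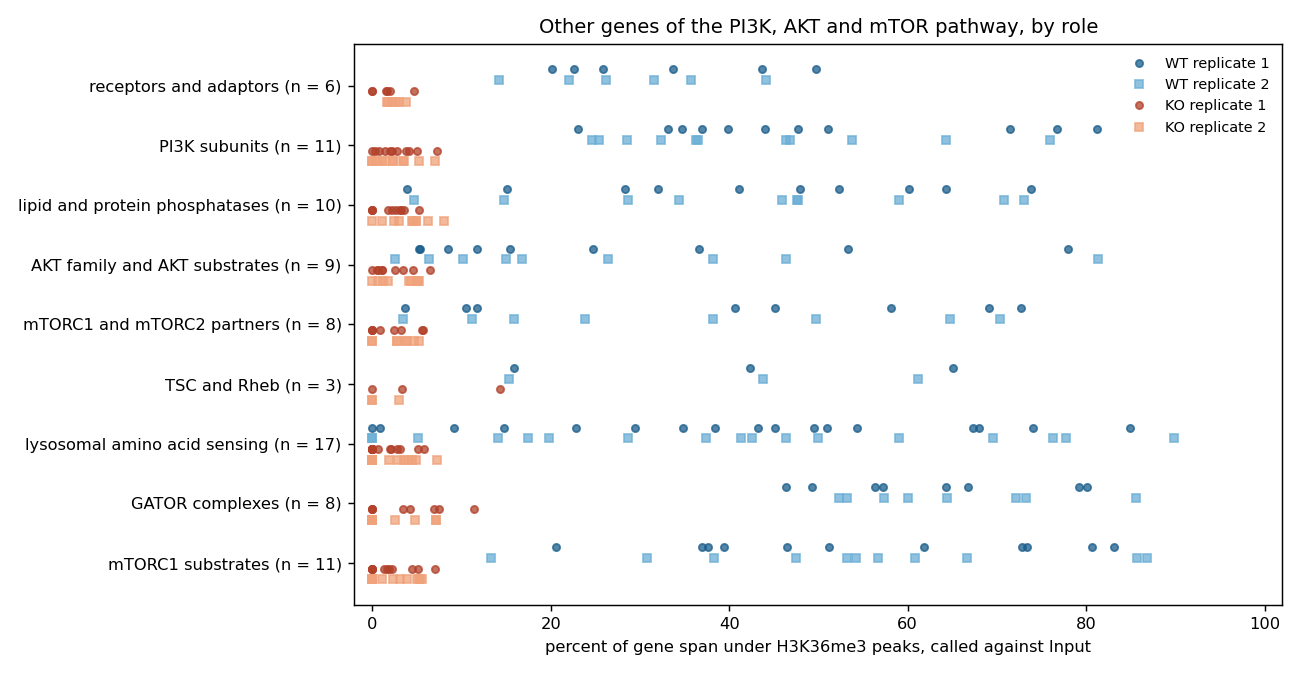
Percent of gene span under peaks called against Input (horizontal axis) for the 83 other pathway genes, grouped by role (vertical axis, n is the number of genes listed). Each point is a gene in a library; in every group most WT points lie to the right of the KO points, which reach at most 14.3%.

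As a last description, 1 gene outside the lists was named for each of the 9 by the smallest distance between coverage values over the 4 libraries, among 13859 protein-coding genes of at least 10 kb. These were Usp3 for Pik3ca, Tnpo1 for Pdpk1, 5730455P16Rik for Akt1, Ifi203 for Akt2, Crot for Tsc1, Eif2ak2 for Tsc2, Ccdc93 for Mtor, Zfp644 for Rptor and Mettl6 for Rictor. The Euclidean distances lay between 0.801 points (Rictor and Mettl6) and 1.46 points (Akt1 and 5730455P16Rik), and since each gene was picked for being nearest, they are a description only.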

How the data were processed

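Per the submitters' processing notes, the authors used Bowtie2 and the build GRCm38; no version is named. They deposited 8 peak lists, 1 per H3K36me3 library and control (Input or IgG of the same genotype), in which each peak has a score. The authors' score has no stated scale and served here to describe or filter peaks within a list. Peak caller settings: not given in the sources used here. Both libraries of a genotype share their control libraries. Depth is unknown, so no interval for counting error can be given, and 0 columns went unused.

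Coverage was the percent of each RefSeq span (GRCm38.p6) under peaks on chromosomes 1 to 19, X and Y. Strand and start windows came from RefSeq's start table, matched for all 9 genes. Exons were not used here. The KO and WT libraries were compared by limma 3.58.1 (R 4.3.3, statmod 1.5.0, eBayes with trend and robust) in genes with mean coverage of at least 10%, Benjamini-Hochberg threshold 0.05, over all genes; this step was tested on simulated data. Python 3.11.15, numpy 2.4.6 and pandas 2.3.3 were used. In the wider list, the genes named were up to 2 with the largest and 2 with the smallest fall per role; a selection of these is printed. Deptor and the printed start windows were picked once their values were known. Some listed genes are not reported here. The members and gene lists were chosen with earlier results of these data known. Alternatives are given in the closing section.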

Additional observations from a re-analysis of the deposited data

How the results depend on the processing

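Each of the 9 genes was lower in KO under the 14 alternatives in which it was tested, 124 results in all, and 122 of them passed the threshold. The exceptions were Rptor (-6.15 points, limma adjusted p = 0.194) and Rictor (-15.2 points, limma adjusted p = 0.105) after scaling to each library's mean coverage; the cause was not tested. With a filter of at least 25% mean coverage Rptor and Pik3ca were not tested, and 7 of 7 were lower. Of all genes tested there, 5881 of 5962 were lower, so this count is near the background. Counts over all genes moved more. Against 10010 lower genes, 5881 were called at the 25% filter, which tests fewer genes, and 4889 after scaling, with 8462 to 9231 when a library was left out. Against 60 higher genes, there were 21 against IgG, 16 with peaks at or above the median score, 12 with scores of at least 50, 494 without the filter, 18 at the 25% filter and 261 after scaling. Leaving out a library gave 13 higher genes (without WT replicate 1), 15 (without WT replicate 2), 182 (without KO replicate 1) and 144 (without KO replicate 2). Of the other pathway genes, 34 were lower at the 25% filter (34 tested) and 34 after scaling, against 67. Over all genes tested it was 5881 of 5962 at that filter and 4889 of 10806 after scaling. With 10 equal parts in place of 3, the last part minus the first in WT turned from -3.02 to 8.96 points in Mtor. It moved from 10.8 to 49.9 in Tsc2, from 47.3 to 98.1 in Akt1 and from 49.6 to 16.9 in Pdpk1. It also moved in Akt2 (71.0 to 54.9), Rptor (53.9 to 72.5), Rictor (69.5 to 81.9) and Tsc1 (55.8 to 69.0). In Pik3ca it changed little, from 65.0 to 68.1. Lists against IgG, tried for the place of peaks after the data were seen, gave 7 in place of 8 genes with less in the 5′ part than in the 3′ part. The labels number the replicates alike in both genotypes, and deviations of same-numbered libraries had a correlation of -0.00324. KO coverage was low, with a median of 2.51% over all genes tested. The correlation therefore cannot show whether same-numbered libraries were handled together. With the replicate number as a block, 9990 of 10806 genes were lower and 60 higher. The 9 of 9 and 67 of 67 pathway genes lower in that fit are near this background. Read depth is unknown and limits every count of peaks.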
